A study of Mus musculus with 12 samples.

Results

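Skin of mice labelled ticks 3x (n = 3) was compared with skin of mice at their first exposure (n = 3). The libraries were chosen by the submitters' immunization label, and they make up 6 of the 12 libraries of the series. All 6 were RNA sequencing libraries of bitten skin taken on day 4 after the bite. The other 6 came from unbitten naive skin (n = 2) and from bitten skin labelled ticks 2x (n = 3) or saliva immune (1 library), and serve here only to place the comparison. The labels used here give no strain, sex, age or tick species. It is also not stated if the infestation that was sampled counts towards 2x and 3x, how far apart the infestations were, or if each library is a separate animal, so the p-values measure only the spread between these libraries, which may be technical. The sample titles fall into 2 numbered series. First exposure and saliva immune belong to series 4, and ticks 3x, ticks 2x and naive to series 6, so exposure and title series cannot be told apart in the main comparison.

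Hard ticks feed for days, and their saliva holds back clotting, pain and inflammation at the bite. Animals that have been bitten before can mount a faster skin response in which antibody on basophils and mast cells, T cell cytokines of type 2, eosinophils and alternatively activated macrophages take part, and in some host and tick pairs the tick then feeds poorly. Skin itself changes strongly with the hair cycle, since a growing follicle adds dividing matrix cells, hair keratins and pigment cells to a biopsy, and the fat layer under the dermis thickens and thins with it.

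Values are CPM, the reads of a gene scaled to a common library total. Depth was estimated at 28.6 M, 17.9 M and 23.2 M reads for first exposure 1 to 3 and at 20.5 M, 21.4 M and 20.1 M reads for ticks 3x 1 to 3, and 3 reads corresponded to between 0.105 and 0.167 CPM. Basal keratinocyte and dermal markers were plentiful in all 6 libraries, with Krt14 between 831 and 2440 CPM, Krt5 between 1660 and 4680 CPM and Col1a1 between 691 and 3370 CPM. Hair follicle content was uneven within both groups. The mean log2(CPM + 1) of 20 hair shaft and inner root sheath genes was 9.73, 10.05 and 1.27 in first exposure 1 to 3 and 5.34, 7.16 and 0.34 in ticks 3x 1 to 3. Each group thus held 1 library nearly free of hair transcripts, replicate 3 in both. In such bulk libraries, fewer cells of a type and less RNA per cell cannot be told apart.

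No gene passed the test between ticks 3x and first exposure. Among 16657 genes tested with limma on log2(CPM + 1), 0% were called higher and 0% lower at a Benjamini-Hochberg adjusted p below 0.05, and the smallest adjusted p was 0.081, shared by 44 genes. At an unadjusted p below 0.05, 18.1% of the genes tested passed, 1381 of them higher in ticks 3x (8.29%) and 1635 lower (9.82%). The median log2 fold change over all genes was -0.05, with 45.7% of genes above 0. All 3 ticks 3x libraries lay above all 3 first exposure libraries for 1493 genes (8.96%) and below them for 2064 genes (12.4%), and these 2 shares are the background for every count of genes without overlap given here. One library carried much of the spread: without first exposure 3, 769 of 16470 genes were called higher (4.67%) and 713 lower (4.33%). Without first exposure 1, 5 genes were called, all higher (B3galt2, Ephx2, Nnat, Pck1 and Slc5a3), and without ticks 3x 3 only Rnase2a was. Array weights, which let each library count by its own spread, gave 4676 genes higher and 5954 lower in an estimate that stopped before convergence, and 3808 and 4355 when estimated gene by gene.

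The 6 genes named by rule on the higher side, those of smallest unadjusted p among genes without overlap and of at least 5 CPM, were Ephx2, Nnat, Pcmtd2, Ces1d, Pck1 and Rnase2a, each at an adjusted p of 0.081 (limma). Rnase2a, a secreted ribonuclease of the eosinophil-associated family (GRCm38.p6, chr14:51255261-51256112), had the widest separation of them. It was at 1.22, 1.34 and 4.66 CPM at first exposure and at 153, 206 and 27.8 CPM in ticks 3x. The log2 fold change was 4.98 ± 0.73 (SE). Its lowest ticks 3x library, replicate 3, still lay above the highest first exposure library. Rnase2a was as high in ticks 2x, at 56.7, 134 and 126 CPM (3x minus 2x -0.03, adjusted p 1), low in naive skin at 6.01 and 2.8 CPM, and highest in the saliva immune library at 320 CPM, which shares its title series with first exposure. In the eosinophil list, Rnase2a included, 7 of 7 tested genes were above 0 and 3 did not overlap (background 8.96%), with a median of 0.83. A granule gene and a surface gene of eosinophils were at far lower levels than Rnase2a in ticks 3x. Prg2, a protein of eosinophil granules, was listed at 0 in all 3 first exposure libraries and at 0.195, 0.234 and 0 CPM in ticks 3x. Siglecf, a surface lectin of eosinophils, was at 0.664, 0.167 and 1.34 CPM against 1.46, 2.62 and 1.54 CPM, higher in ticks 3x without overlap. Ccl11, a chemokine that draws eosinophils, was at 21.5, 15.3 and 49.5 CPM against 46.3, 50.8 and 30.6 CPM.

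Nnat, an imprinted gene for a small membrane protein (chr2:157560078-157562525), was at 16.6, 10.6 and 7.59 CPM at first exposure and at 45.8, 62.2 and 47.4 CPM in ticks 3x (log2 fold change 2.12 ± 0.26). No other library reached the ticks 3x range: ticks 2x stood at 15.3, 12.3 and 15.4 CPM, naive skin at 4.97 and 6.39 CPM and saliva immune at 9.36 CPM. Nnat was also the 1 gene called between ticks 3x and naive skin, 0.006% of the genes tested (limma, adjusted p 0.0349). Against ticks 2x its log2 difference was 1.78, with an adjusted p of 0.621 that was the smallest in that comparison.

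The remaining 4 genes of the higher side follow a different order over the libraries. Ces1d, a carboxylesterase that hydrolyses stored lipid in fat cells (chr8:93166072-93197804), was at 46.7, 24.2 and 48 CPM at first exposure and at 176, 149 and 259 CPM in ticks 3x, a log2 difference of 2.29 ± 0.32. Pck1, the enzyme that opens glucose and glycerol synthesis (chr2:173153073-173159274), was at 119, 44.2 and 52.1 CPM against 285, 408 and 430 CPM, a log2 difference of 2.48 ± 0.35. Ephx2, which opens epoxides of fatty acids (chr14:66084372-66124522), was at 44.3, 27 and 35.5 CPM against 97.5, 105 and 117 CPM (1.58 ± 0.18). For these 3 genes all naive and ticks 2x libraries lay above first exposure, and none lay above the ticks 3x range. Pcmtd2 (chr2:181830159-181857460) showed the smallest difference of the 6, from 53.6, 48.9 and 55.2 CPM to 87.6, 87.9 and 92.6 CPM (0.76 ± 0.1).

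**Figure D1:**
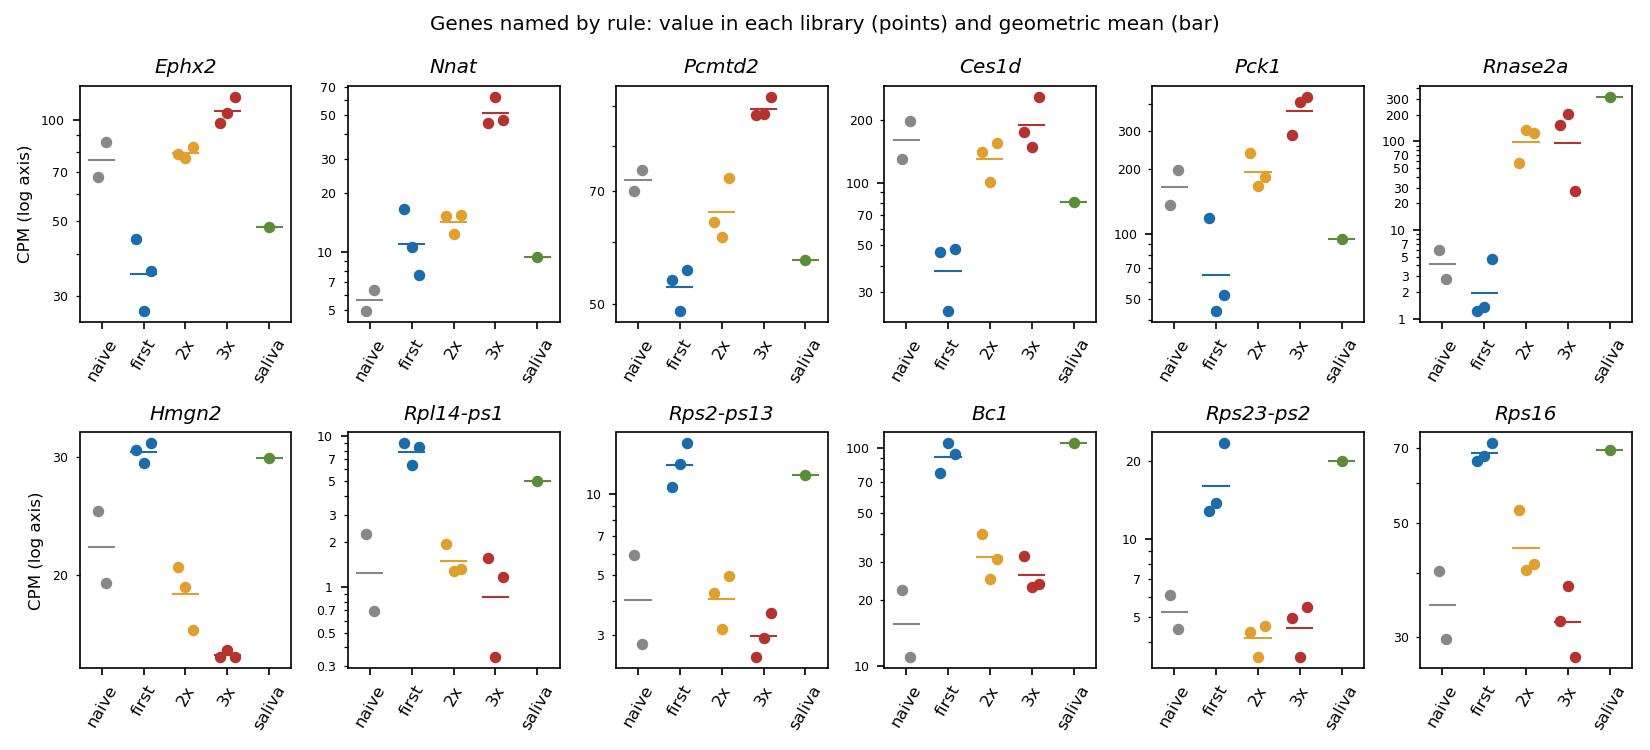
CPM on a log axis of the 12 genes named by rule, with 1 point for each of the 12 libraries and a bar at each group's geometric mean. Rnase2a is high in 2x, 3x and saliva immune skin, Nnat in 3x alone, and in the lower row the saliva immune library lies within or near the first exposure points.

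On the lower side the rule named Hmgn2, Rpl14-ps1, Rps2-ps13, Bc1, Rps23-ps2 and Rps16, again at an adjusted p of 0.081 each (limma). Hmgn2, a nucleosome-binding protein (chr4:133964739-133967991), was at 30.7, 29.3 and 31.4 CPM at first exposure and at 15.1, 15.5 and 15.1 CPM in ticks 3x (log2 fold change -0.95 ± 0.13). Bc1, a short untranslated RNA made by RNA polymerase III (chr7:144914470-144914623), was at 76.4, 105 and 93.8 CPM against 32, 22.9 and 23.8 CPM (-1.77 ± 0.27). Rps16, a protein of the small ribosomal subunit (chr7:28350689-28352698), was at 66.2, 67.7 and 71.6 CPM against 32.2, 37.8 and 27.4 CPM (-1.06 ± 0.17). The saliva immune library was at 29.9 CPM for Hmgn2, 105 CPM for Bc1 and 69.4 CPM for Rps16, on the first exposure side each time.

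Of the 6, 3 were processed pseudogenes of ribosomal proteins, copies of a spliced message set back into the genome. Because such copies match their parent closely, reads can be assigned to either. The first 120 coding bases of 2 parents are shown beside their copies, from the GENCODE M21 transcripts (GRCm38), with capitals where the pair differs.
Rps2-ps13 (chrX:52898588-52898707, plus strand): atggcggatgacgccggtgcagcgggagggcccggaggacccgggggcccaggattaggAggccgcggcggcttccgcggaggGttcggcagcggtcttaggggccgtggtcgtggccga
Rps2 (chr17:24720276-24720395, plus strand): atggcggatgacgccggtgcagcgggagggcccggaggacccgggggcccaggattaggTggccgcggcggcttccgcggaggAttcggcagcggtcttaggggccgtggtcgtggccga
Rps23-ps2 (chr8:3584111-3584230, minus strand): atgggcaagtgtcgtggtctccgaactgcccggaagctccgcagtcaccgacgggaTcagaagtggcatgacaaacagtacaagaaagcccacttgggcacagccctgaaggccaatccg
Rps23 (chr13:90923196-90923702, plus strand, introns removed): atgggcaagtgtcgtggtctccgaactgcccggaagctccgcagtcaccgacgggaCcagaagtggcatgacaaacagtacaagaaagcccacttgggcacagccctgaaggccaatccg
Over the whole coding part, Rps2-ps13 matched 872 of 879 bases of Rps2 (99.2%) and Rps23-ps2 matched 427 of 429 bases of Rps23 (99.5%). Of all stretches of 50 bases in Rps2-ps13, 66% occurred unchanged in Rps2, and 73.9% of those in Rps23-ps2 occurred in Rps23.

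Rps2-ps13 was at 10.6, 12.9 and 15.4 CPM at first exposure and at 2.48, 2.93 and 3.62 CPM in ticks 3x (log2 fold change -1.8 ± 0.26). Its parent Rps2 was listed at 3.04, 1.65 and 4.56 CPM against 1.5, 0.847 and 1.22 CPM (-0.85 ± 0.3). Per kilobase of transcript, this copy had 14.7 CPM and the parent 2.82 CPM on average at first exposure. Rps23-ps2 was at 12.9, 13.8 and 23.5 CPM against 4.94, 3.49 and 5.45 CPM (-1.62 ± 0.25), and Rps23 at 68.1, 60.8 and 32.8 CPM against 22.9, 29.4 and 15.1 CPM (-1.21 ± 0.32). In that pair the copy had less per kilobase than the parent at first exposure, 38.7 against 57.5 CPM. Rpl14-ps1 was at 8.95, 6.39 and 8.48 CPM against 1.56, 0.342 and 1.17 CPM (-2.18 ± 0.31). Since the authors' treatment of reads with several matches is not given in the sources used here, the levels of these copies and parents are uncertain.

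Most such copies lay lower in ticks 3x, a class that was looked at after the values were seen. Of 72 ribosomal protein pseudogenes tested, 70 had a log2 fold change below 0, 50 did not overlap between the groups and were lower in ticks 3x, and the median was -0.75. The values ran from -2.18 to 0.58, and 22 overlapped. The abundant copies differed least: 9 with a mean of at least 100 CPM over all libraries had a median of -0.26 and 7 of them overlapped, while 63 below that level had a median of -0.81. Some low copies, such as Rpl13-ps3 and Rpl18-ps2, reached the 1 CPM needed for testing only at first exposure. The filter thus largely set their direction, so they add no support to the counts of lower copies or to this contrast by level. In all 50 without overlap, the saliva immune library lay nearer the first exposure mean than the ticks 3x mean. Over all lower genes without overlap that share was 58.5%. In 33 of the 50 every naive and ticks 2x library also lay nearer ticks 3x, against 16.2% of all lower genes without overlap. This is the split of the title series. Of these pseudogenes, 67 had a GENCODE transcript and a parent of the same name, and between 11.4% and 100% of their stretches of 50 bases, with a median of 68.8%, occurred in the parent.

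Ribosomal proteins, the building blocks of both subunits, lay lower in ticks 3x by a smaller amount. In the large subunit 48 of 49 genes had a log2 fold change below 0 and 35 did not overlap, with a median of -0.39. In the small subunit 32 of 33 were below 0 and 19 did not overlap, with a median of -0.36. Saliva immune lay nearer first exposure for 33 of the 35 and 18 of the 19, beside the same 58.5%. Of the most abundant members, Rpl4 and Rpsa lay near the list medians without overlap, and Rplp0 and Rps4x differed less and overlapped. Rpl4 was at 1240, 1340 and 1150 CPM against 1090, 960 and 942 CPM (-0.32 ± 0.18, adjusted p 0.35). Rpsa was at 1040, 1140 and 919 CPM against 915, 846 and 742 CPM (-0.31 ± 0.18). Rplp0 was at 839, 930 and 837 CPM against 910, 759 and 679 CPM (-0.16 ± 0.18). Rps4x was at 863, 923 and 889 CPM against 912, 806 and 774 CPM (-0.1 ± 0.15, adjusted p 0.701). Rps12, a small subunit protein, was at 102, 108 and 105 CPM against 64.8, 57.7 and 59.6 CPM (-0.78 ± 0.12, adjusted p 0.081). In a split made after seeing the values, 18 ribosomal genes with a mean under 100 CPM over all libraries had a median log2 fold change of -0.8, and 64 at or over that level one of -0.34. No ribosomal gene was called.

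Cell cycle genes lay lower in ticks 3x, with the largest share of members without overlap of the 48 lists. All 23 tested members had a log2 fold change below 0, 22 of 23 did not overlap between the groups (background 12.4%), and their median was -1.25. Mki67, a protein of dividing nuclei, was at 269, 266 and 122 CPM at first exposure and at 67.7, 108 and 34.9 CPM in ticks 3x (-1.68 ± 0.51, adjusted p 0.191). Top2a, which untangles DNA before division, was at 138, 132 and 78.2 CPM against 48.6, 69.4 and 30.1 CPM (-1.25 ± 0.37, adjusted p 0.188). The replication helicase subunit Mcm5 was at 44.9, 47.8 and 23 CPM against 12.5, 18.2 and 6.28 CPM, and Cdk1, the kinase that starts mitosis, at 26.2, 29.8 and 15.2 CPM against 10.6, 13.6 and 5.73 CPM. Within each group the library nearly free of hair transcripts had the lowest list mean, 4.55 in first exposure 3 and 3.3 in ticks 3x 3, a log2 difference of -1.25. These 2 libraries also differed by 1.58 for adipocyte, 0.89 for skeletal muscle, -1.26 for fibroblast and collagen and -0.53 for basal and spinous keratinocyte genes. The part of tissue make-up in the cell cycle difference was not tested. When the hair list mean entered the fit, the cell cycle median was -0.99. Aurkb, the exception to the separation, overlapped in 1 library of each group (first exposure 3 at 9.19 CPM, ticks 3x 2 at 12.1 CPM). Without first exposure 3, 15 of the 23 were called lower, against 4.33% of all genes tested. That omission takes out the first exposure library with the lowest list mean, 4.55 against 5.35 and 5.4, and so widens the difference. The list mean was 4.93, 4.63 and 3.94 in ticks 2x, 4.49 and 3.98 in naive skin, and 4.45 in saliva immune, and against ticks 2x the list median was -0.64.

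**Figure D2:**
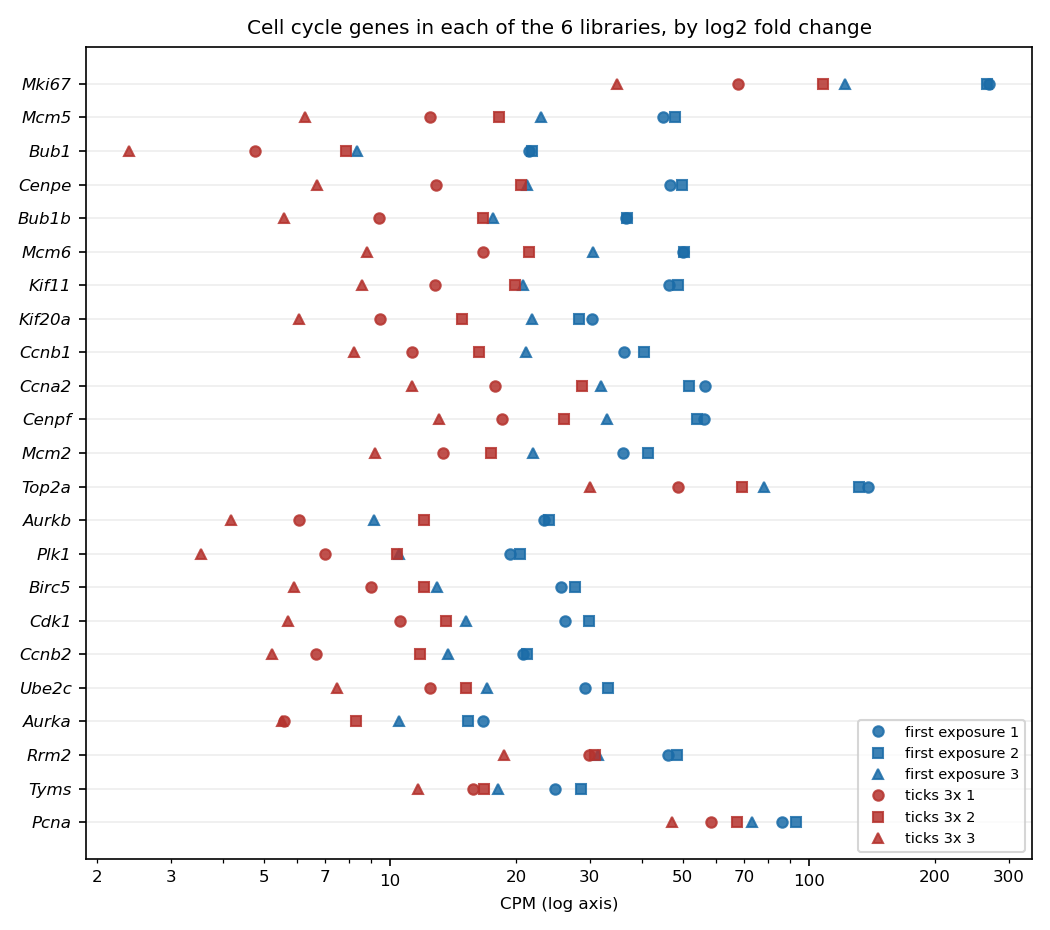
CPM on a log axis of the 23 cell cycle genes tested, one row a gene, with first exposure libraries in blue and ticks 3x libraries in red and a marker shape for each replicate. In 22 of the 23 rows every red point lies to the left of every blue point, and replicate 3 is the lowest blue point throughout.

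Because the cell cycle genes lay low together, their upstream sequence is shown. Promoters of genes used in late cell cycle are known for CCAAT boxes and for the cell cycle homology element TTTGAA. In the 250 bases before 1 start site per gene from RefSeq (GRCm38.p6), read on both strands, CCAAT occurred in 18 of the 20 cell cycle promoters at hand and in 34.5% of 27025 mouse promoters, and TTTGAA in 7 of 20 and in 16.3%. Both occurred in the same 7 promoters and in 5.7% of all. A match of letters is not a shown binding site. For Mki67 and Top2a, whose annotated spans reach to 135716450 and 99024199, the window overlaps the annotated gene. The windows of 4 of the 7 follow, with both motifs on either strand in capitals.
Mki67 (chr7:135716380-135716629, minus strand): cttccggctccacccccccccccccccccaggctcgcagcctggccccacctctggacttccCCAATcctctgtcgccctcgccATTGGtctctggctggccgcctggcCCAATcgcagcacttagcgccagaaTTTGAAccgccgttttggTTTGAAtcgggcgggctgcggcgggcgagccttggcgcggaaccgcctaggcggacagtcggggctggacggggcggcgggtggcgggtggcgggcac
Top2a (chr11:99024190-99024439, minus strand): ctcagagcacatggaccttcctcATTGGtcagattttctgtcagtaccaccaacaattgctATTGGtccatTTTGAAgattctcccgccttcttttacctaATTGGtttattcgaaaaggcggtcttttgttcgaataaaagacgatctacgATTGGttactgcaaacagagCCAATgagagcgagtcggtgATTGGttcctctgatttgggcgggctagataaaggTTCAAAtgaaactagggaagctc
Cdk1 (chr10:69352913-69353162, minus strand): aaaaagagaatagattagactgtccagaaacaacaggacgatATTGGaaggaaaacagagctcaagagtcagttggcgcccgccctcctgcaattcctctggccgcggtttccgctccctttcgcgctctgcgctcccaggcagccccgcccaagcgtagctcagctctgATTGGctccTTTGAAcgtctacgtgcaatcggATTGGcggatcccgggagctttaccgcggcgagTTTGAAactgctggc
Ccnb2 (chr9:70421555-70421804, minus strand): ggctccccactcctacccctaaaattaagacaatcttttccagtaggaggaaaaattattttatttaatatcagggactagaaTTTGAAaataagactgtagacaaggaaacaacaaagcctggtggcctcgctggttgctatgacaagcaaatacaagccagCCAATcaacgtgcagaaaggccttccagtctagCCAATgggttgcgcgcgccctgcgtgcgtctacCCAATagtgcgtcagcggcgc
CCAAT matched 3 times in the Mki67, Cdk1 and Ccnb2 windows and 6 times in that of Top2a.

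Fat cell genes lay higher in ticks 3x. Of 17 tested adipocyte genes, 16 had a log2 fold change above 0 and 13 did not overlap (background 8.96%), with a median of 1.14. Adipoq, the hormone adiponectin, was at 149, 72.3 and 126 CPM at first exposure and at 282, 320 and 552 CPM in ticks 3x (1.72 ± 0.31, adjusted p 0.091). Fabp4, the fatty acid carrier of adipocytes, was at 773, 576 and 546 CPM against 1050, 1390 and 1800 CPM (1.14 ± 0.24, adjusted p 0.111). Car3, a carbonic anhydrase abundant in fat, was at 1570, 1070 and 1330 CPM against 1730, 2270 and 5020 CPM (1.04 ± 0.38, adjusted p 0.224). Lep, the hormone leptin, was at 25.6, 9.92 and 13.5 CPM against 29.5, 49.6 and 74 CPM. The enzymes of fatty acid synthesis in the list stood apart from these, with Fasn at 845, 458 and 681 CPM against 696, 430 and 1200 CPM (0.15 ± 0.49) and Acaca at 220, 164 and 183 CPM against 155, 106 and 239 CPM (-0.25 ± 0.34). The adipocyte list mean was 7.56, 6.79 and 7.18 at first exposure and 7.83, 8.03 and 8.76 in ticks 3x, and naive skin was as high, at 8.45 and 8.78. Ephx2, Ces1d and Pck1 were high in the same libraries, and the part of fat content in their differences was not tested. With the means of the adipocyte and skeletal muscle lists as covariates their log2 differences were 0.83, 1.08 and 0.74, the smallest adjusted p over all genes was 0.887 and 326 genes had an unadjusted p below 0.05.

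Endothelial and lymphatic genes also lay higher, whereas those of the vessel wall did not. In the endothelial list 16 of 16 genes were above 0 and 10 did not overlap, with a median of 1.05, and in the lymphatic list the counts were 8 of 8 and 5, with a median of 0.9. Pecam1, an adhesion protein between endothelial cells, was at 43.3, 27.1 and 67.1 CPM at first exposure and at 90, 172 and 86.4 CPM in ticks 3x (1.34 ± 0.55, adjusted p 0.257). Plvap, a protein of vessel pores, was at 37.7, 27.4 and 48.9 CPM against 79.9, 138 and 64 CPM. Sele, the selectin that catches leukocytes on activated vessels, was at 2.94, 1.23 and 6.08 CPM against 15.8, 26 and 7.02 CPM (1.96 ± 0.71, adjusted p 0.221). Lyve1, a hyaluronan receptor of lymphatic vessels and some macrophages, was at 17.2, 19.6 and 19.2 CPM against 47.7, 60.8 and 26.1 CPM (1.14 ± 0.34, adjusted p 0.183), while ticks 2x was at 18, 18.6 and 18.6 CPM and naive skin was at 113 and 49.8 CPM. Pdpn, a membrane protein of lymphatic and other cells, overlapped at 34.8, 33.8 and 60.9 CPM against 65.9, 86.1 and 23.8 CPM. Of 12 smooth muscle and pericyte genes 6 were above 0 and 1 did not overlap, with a median of -0.03. Des was at 513, 647 and 934 CPM against 187, 626 and 1200 CPM, and Notch3 at 137, 127 and 137 CPM against 132, 125 and 88.7 CPM. Over the endothelial list the median difference between ticks 3x and naive skin was 0.01.

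Sebaceous gland and hormone receptor genes went both ways. Of 15 sebaceous genes 11 were above 0 and 4 below, down to -2.02, and 7 did not overlap, all higher in ticks 3x, with a list median of 0.91. The most abundant member, the desaturase gene Scd1, overlapped at 1990, 889 and 2170 CPM against 2640, 1610 and 4680 CPM (0.79 ± 0.55, adjusted p 0.421). Elovl4, which lengthens fatty acids, was at 272, 211 and 461 CPM against 1010, 477 and 503 CPM (1.06 ± 0.44, adjusted p 0.261). Scd3, a desaturase of the gland and the member with the highest log2 fold change, was at 29, 20.3 and 37.6 CPM against 144, 59.6 and 101 CPM (1.73 ± 0.47, adjusted p 0.165). Among 10 hormone receptor genes 8 were above 0 and 2 below, and 5 did not overlap, all higher. Vdr, the vitamin D receptor, was at 303, 336 and 66.9 CPM against 136, 149 and 73.8 CPM (-0.73 ± 0.69, adjusted p 0.546). Pgr, the progesterone receptor, was at 1.15, 0.947 and 2.07 CPM against 10.9, 12.2 and 2.09 CPM (1.75 ± 0.5, adjusted p 0.179). Ticks 3x 3 lay just above the highest first exposure library. Pgr was lower in ticks 2x, at 0.344, 0.476 and 0.124 CPM, and higher in naive skin, at 42.4 and 25.1 CPM. Ghr, the growth hormone receptor, was at 172, 107 and 150 CPM against 238, 287 and 397 CPM (1.09 ± 0.22, adjusted p 0.111).

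**Figure D3:**
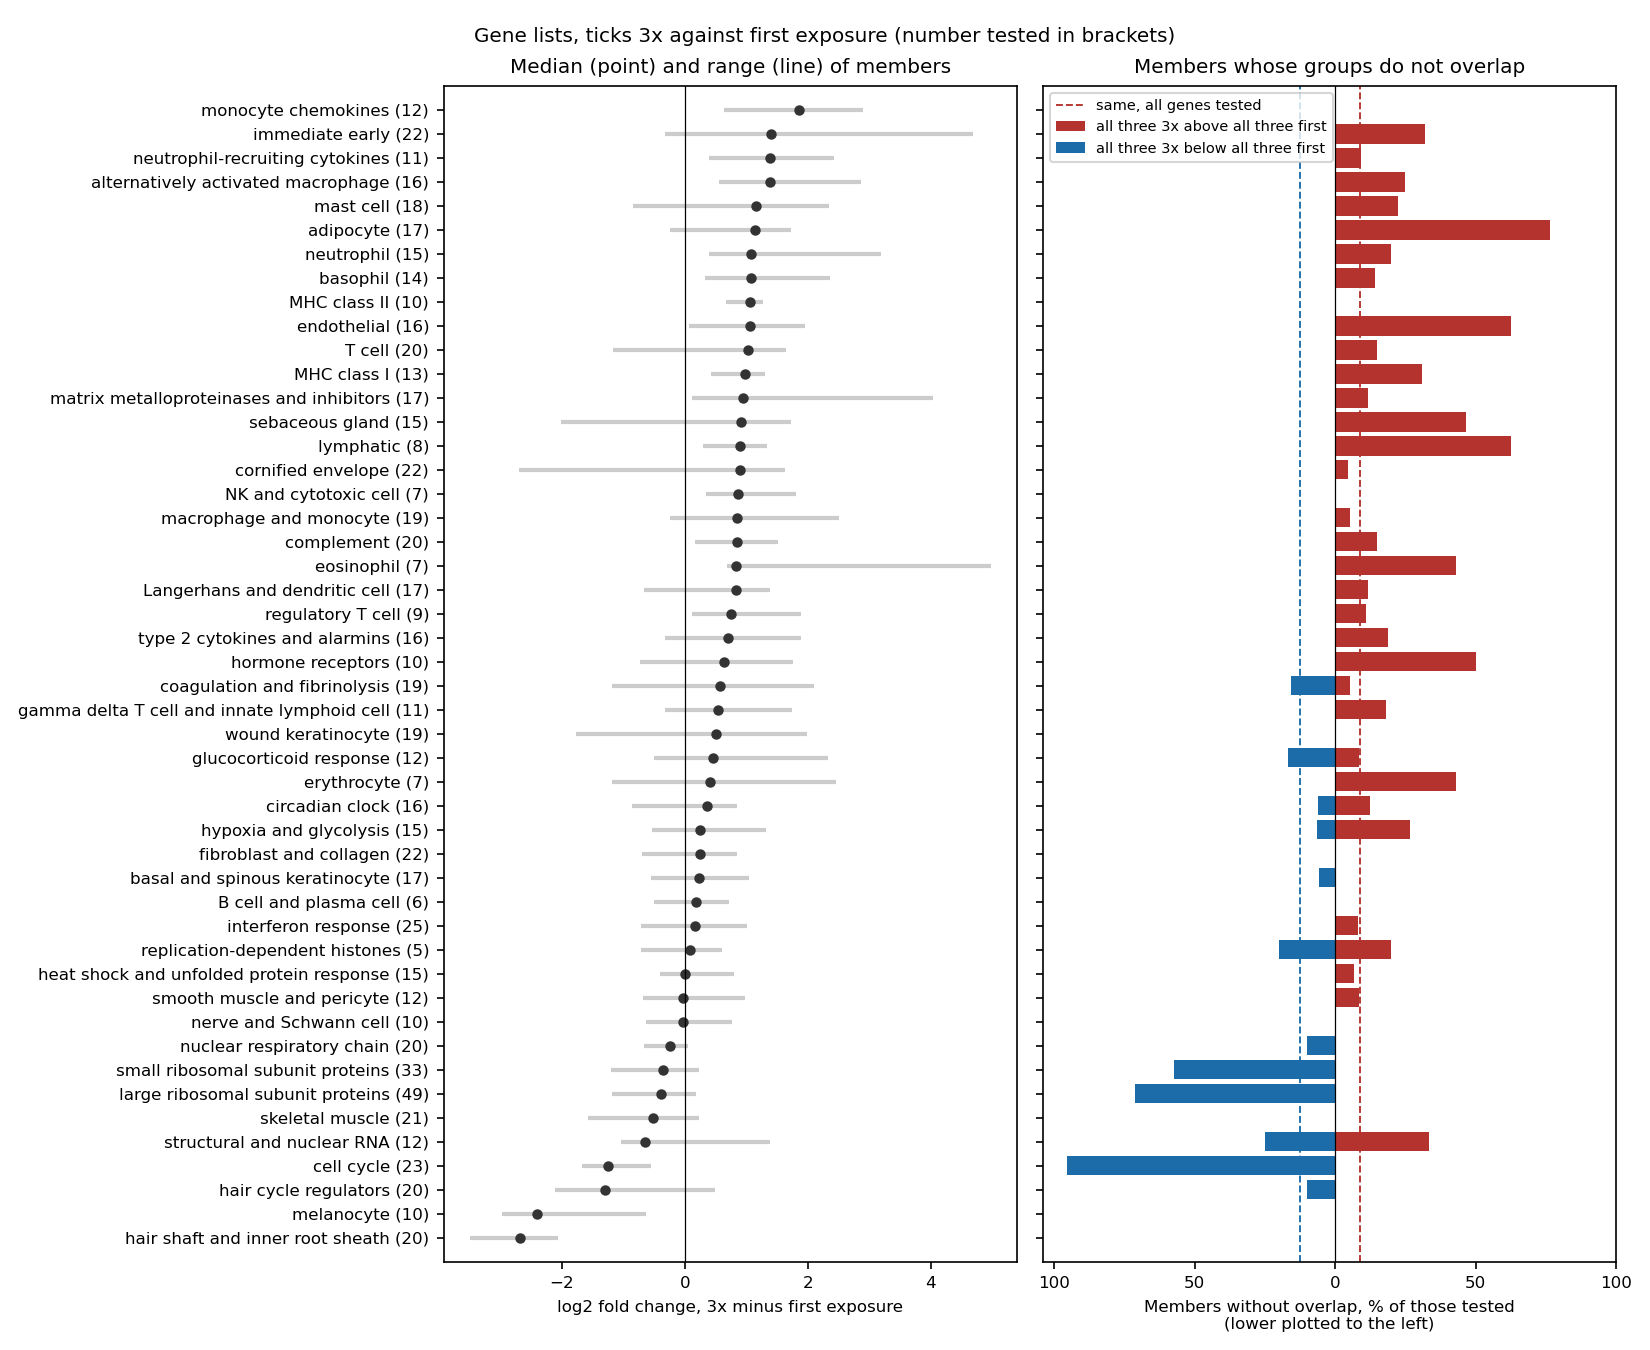
Median and range of the log2 fold change of the tested members of 48 gene lists (left) and the percent of members whose groups do not overlap (right, higher in red and lower in blue), with dashed lines at 8.96% and 12.4% for all genes tested. Cell cycle, ribosomal, adipocyte, endothelial and lymphatic lists extend far past the dashed lines, and most immune lists have medians above 0 with short bars.

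Immune genes lay higher on average without separating the groups. Over 18 lists of immune cells, antigen presentation and cytokines, 204 of 223 genes tested had a log2 fold change above 0, with a median of 0.88, but only 31 did not overlap (13.9%, background 8.96%). Some low members, such as Mcpt8, Il4, Il10 and Gzmb, reached the 1 CPM needed for testing only in ticks 3x 1 and 2. The filter thus largely set their direction, so they add no support to the counts of higher genes. The 3 ticks 3x libraries disagreed. Replicates 1 and 2 both lay above all 3 first exposure libraries for 142 of the 223 genes, whereas ticks 3x 3 lay below first exposure 3 for 178. Over all 48 lists, these 223 genes included, the 2 counts were 268 and 492 of 729 genes. The 142 include the low members named above.

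Several macrophage and chemokine genes showed this. Ccl8, a chemokine that draws monocytes and type 2 T cells, was at 48, 31.7 and 73.8 CPM at first exposure and at 612, 661 and 44.7 CPM in ticks 3x (2.42 ± 1.02, adjusted p 0.263). The 2 high libraries stood far above the other 4, and ticks 3x 3 lay inside the first exposure range. None of 12 monocyte chemokine genes separated the groups, although all 12 were above 0 and their median of 1.85 was the highest of the 48 lists. Without ticks 3x 3 that median was 2.47. Ccl6 was at 92.7, 66.2 and 251 CPM against 386, 530 and 165 CPM. Lyz2, a lysozyme of macrophages, overlapped at 264, 175 and 721 CPM against 468, 484 and 282 CPM. Cd163, a scavenger receptor of resident macrophages, did separate, at 72.7, 51.4 and 158 CPM against 597, 1020 and 179 CPM (2.5 ± 0.85, adjusted p 0.208). It was the 1 member without overlap among 19 macrophage and monocyte genes, of which 18 were above 0, with a median of 0.85. Among genes of alternatively activated macrophages 16 of 16 were above 0 and 4 did not overlap, with a median of 1.38. Mrc1, the mannose receptor, was at 115, 69.8 and 247 CPM against 556, 841 and 135 CPM. Retnla, a secreted protein of that state, separated the groups, at 67.4, 57.3 and 112 CPM against 129, 308 and 225 CPM (1.44 ± 0.46, adjusted p 0.195). Arg1, the arginase of that state, was at 31.9, 37.1 and 45.4 CPM against 250, 413 and 24.3 CPM (1.83 ± 1.09, adjusted p 0.361).

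Basophil genes gave the same picture at far lower levels. Mcpt8, the protease that defines mouse basophils, was at or under the floor at first exposure (0.07, 0.0558 and 0.129 CPM) and at 6.91 and 7.57 CPM in ticks 3x 1 and 2, and it was listed at 0 in ticks 3x 3 (adjusted p 0.289). Ticks 2x repeated that divide, at 0.0493, 6.18 and 5.15 CPM, and Mcpt8 was listed at 0 in both naive libraries and was at 2.61 CPM in saliva immune. Il4, a cytokine that basophils and T cells make, was at 0.105, 0.223 and 0.259 CPM against 1.75, 2.76 and 0 CPM (0.87 ± 0.41, adjusted p 0.292). Il13 did not reach the level for testing, at 0, 0.167 and 0.129 CPM against 1.22, 0.888 and 0.498 CPM. All 14 basophil genes had a log2 fold change above 0, 2 did not overlap, and the median was 1.08, or 1.64 without first exposure 3. Mcpt8 and Il4 count among the 14, although both passed the filter only through ticks 3x 1 and 2. The most abundant members are not specific to basophils: Ptgs1 was at 78.3, 43.7 and 289 CPM against 218, 177 and 177 CPM, and Csf1 at 50.1, 32.2 and 106 CPM against 151, 166 and 75.2 CPM. Mast cell genes were more abundant: Mcpt4, a protease of connective tissue mast cells, was at 47.8, 22.7 and 111 CPM against 185, 130 and 74.1 CPM (1.27 ± 0.5, adjusted p 0.245). Of 18 mast cell genes 16 were above 0 and 4 did not overlap, with a median of 1.16 that was 0.72 without first exposure 2. Cpa3, the mast cell carboxypeptidase, was at 42.8, 18.4 and 103 CPM against 170, 118 and 59 CPM.

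Transcripts of Cd4, which marks helper T cells, were few in all 6 libraries. Cd4 was at 0.664, 0.334 and 1.55 CPM against 9.83, 6.03 and 0.946 CPM (1.57 ± 0.74, adjusted p 0.289), and ticks 3x 3 again lay within the first exposure range. Il10, a cytokine that restrains inflammation, was at 0.105, 0.0558 and 0.431 CPM against 5.01, 11.6 and 0.0997 CPM (1.88 ± 0.77, adjusted p 0.257). Of 20 T cell genes 19 were above 0 and 3 did not overlap, with a median of 1.02 that was 0.65 without first exposure 2. Cd3g, a chain of the T cell receptor complex, was at 4.86, 0.836 and 12.5 CPM against 13.6, 9.96 and 9.56 CPM. The exception, Tcf7, which hair follicle cells also express, was at 40.9, 51 and 10.7 CPM against 12.7, 15.1 and 9.06 CPM (-1.17 ± 0.6). Antigen presentation genes were abundant. Cd74, the chaperone of class II molecules, was at 242, 130 and 631 CPM against 686, 717 and 523 CPM (1.23 ± 0.48, adjusted p 0.239), with the hair-poor first exposure library close to ticks 3x. All 10 class II genes were above 0 and none separated, while 4 of 13 class I genes did. H2-Aa, a class II chain, was at 116, 66 and 340 CPM against 368, 374 and 268 CPM. H2-K1 and H2-D1 are class I chains. H2-K1 was at 426, 248 and 903 CPM against 1110, 938 and 830 CPM, and H2-D1 at 502, 279 and 1080 CPM against 1520, 1310 and 1140 CPM (1.3 ± 0.44, adjusted p 0.208).

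Neutrophil genes lay higher on average, and interferon response genes hardly differed. All 15 neutrophil genes were above 0, 3 did not overlap and the median was 1.08, which was 0.36 without ticks 3x 1. BC100530 was at 8.73, 11.7 and 2.19 CPM against 138, 32.9 and 0.448 CPM. Mmp9, a gelatinase of neutrophils and macrophages, was at 10.1, 4.35 and 17.8 CPM against 156, 235 and 21.4 CPM (3.18 ± 1, adjusted p 0.194). Il1f9 was at 17.8, 10.5 and 58.6 CPM against 61.6, 37.3 and 26.3 CPM. Il1b, a cytokine that draws neutrophils, was at 2.06, 1.11 and 10.3 CPM against 33.5, 47.7 and 3.49 CPM, and ticks 2x reached 19.1, 329 and 122 CPM. In the interferon response list 16 of 25 genes were above 0, 2 did not overlap and the median was 0.17. Leaving out any 1 library but first exposure 1 moved that median by over 1.5 times, to between -0.13 (without first exposure 2) and 0.47 (without ticks 3x 3). Stat2, a factor of interferon signalling, was at 48.3, 33.6 and 54 CPM against 60.5, 63.4 and 40.2 CPM.

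**Figure D4:**
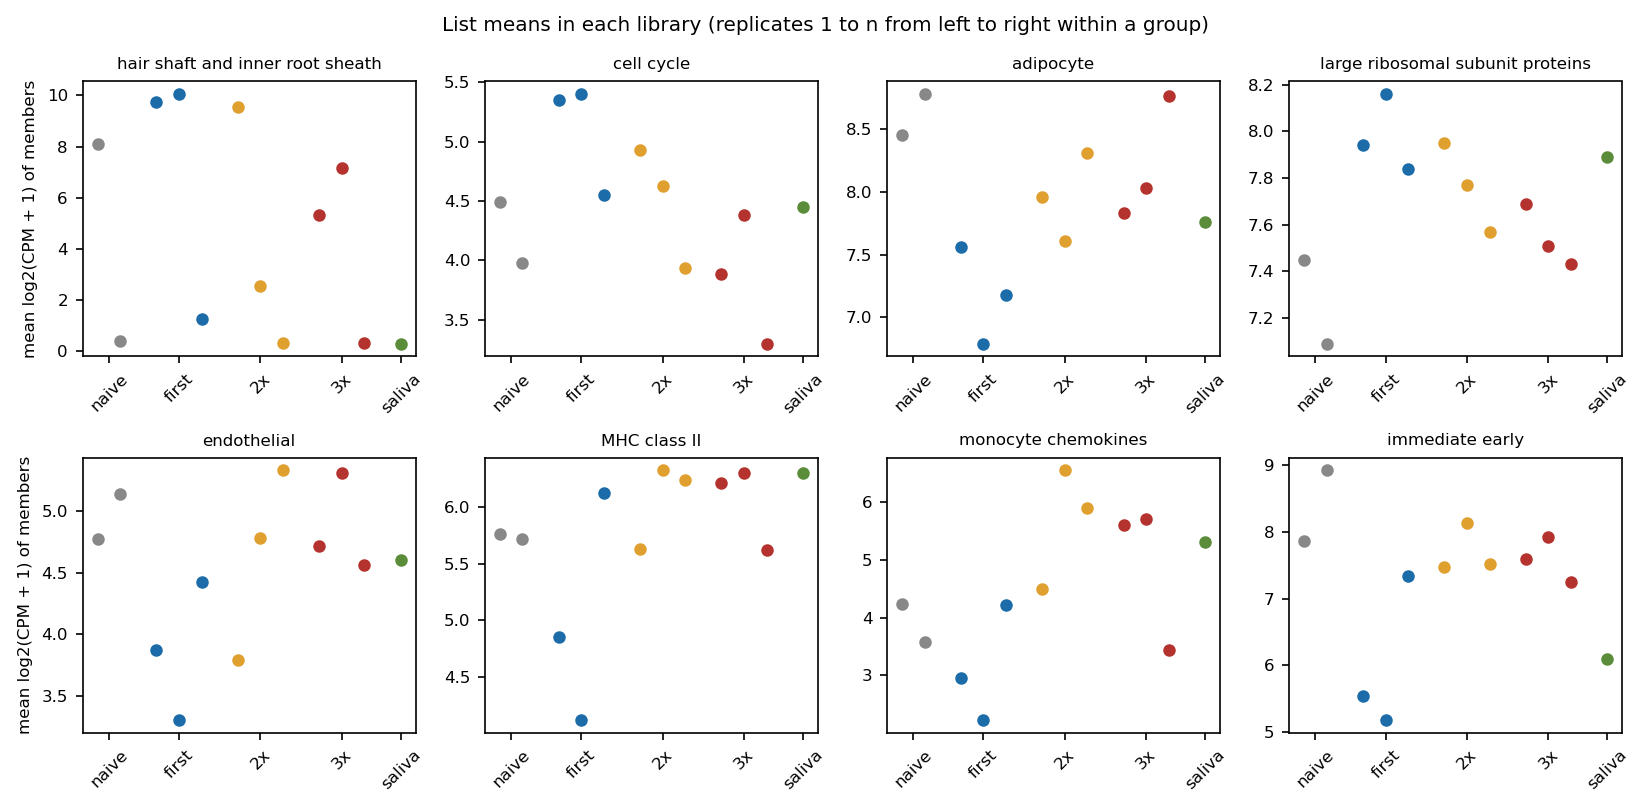
Mean log2(CPM + 1) of the tested members of 8 lists in each of the 12 libraries, with groups along the x axis and replicates in order within a group. Cell cycle and adipocyte means separate first exposure from 3x, monocyte chemokines are high in 3x 1 and 2 but low in 3x 3, and the hair panel shows hair-poor libraries in every group.

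Immediate early genes, which cells switch on within minutes of a stimulus or of tissue handling, lay higher in ticks 3x for 20 of 22 members, with a median of 1.4 and 7 without overlap. Fos was at 76, 23.4 and 1050 CPM at first exposure and at 1530, 1760 and 995 CPM in ticks 3x (3.47 ± 1.13, adjusted p 0.202). Only first exposure 3 was high in its group, and it reached the ticks 3x range. Naive skin was at 1520 CPM, within the ticks 3x range, and at 3380 CPM, above it, and saliva immune was at 219 CPM. In all 7 genes without overlap the saliva immune library lay nearer first exposure, against 48% of all higher genes without overlap, 3 of 10 in the endothelial list and 9 of 13 in the adipocyte list. Klf4, a factor of this list also made by keratinocytes, was at 346, 284 and 818 CPM against 1050, 1050 and 852 CPM. Without first exposure 3, the library of its group nearest ticks 3x for Fos, 16 of the 22 were called higher, against 4.67% of all genes tested. The same omission called 8 of 10 class II genes and 10 of 18 mast cell genes higher, and 0 of 16 endothelial genes. First exposure 3 had the highest mean of its group in each of these lists. It was 6.12 against 4.85 and 4.12 for class II and 3.75 against 3.05 and 2.36 for mast cell genes. For endothelial genes it was 4.42 against 3.87 and 3.3. Leaving it out thus widens these differences, and the calls add no support to them.

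Hair, pigment and muscle genes had large differences without separation. All 20 hair shaft genes were below 0 with a median of -2.68, all 10 melanocyte genes were below 0 with a median of -2.4, and none of the 30 separated the groups. Single libraries set the size. The hair median was -1.28, -1.11 and -5.64 without first exposure 1, 2 and 3, and -4.22 and -0.8 without ticks 3x 2 and 3. The melanocyte median was -1.28 without first exposure 2 and -4.26 without first exposure 3. Krt71, a keratin of the inner root sheath, was at 5850, 6700 and 14.5 CPM against 299, 1080 and 0.299 CPM (-3.5 ± 4.11, adjusted p 0.628). When the hair list mean entered the fit, the hair median was -0.04. Tchh, a protein of the inner root sheath, was at 9180, 9480 and 17.7 CPM against 458, 1910 and 5.83 CPM. Tyrp1 and Dct are enzymes of pigment synthesis. Tyrp1 was at 350, 608 and 2.5 CPM against 16.6, 34.5 and 3.79 CPM, and Dct was at 448, 787 and 5.26 CPM against 24.6, 43.5 and 8.57 CPM (-2.56 ± 2.03, adjusted p 0.473). Of 21 skeletal muscle genes 20 were below 0, with a median of -0.52 that rests on single libraries: it was 0.12 without ticks 3x 1, -0.27 without ticks 3x 2 and -1.42 without ticks 3x 3. Acta1, the actin of muscle fibres, was at 4030, 5020 and 5310 CPM against 1270, 2470 and 10200 CPM, and the myosin gene Myh4 at 3090, 3630 and 4080 CPM against 1300, 2730 and 12600 CPM. Collagens overlapped as well. Col1a2 was at 1750, 1100 and 3320 CPM against 3040, 2760 and 949 CPM, and Col3a1 was at 3450, 1890 and 7140 CPM against 6460, 6750 and 1590 CPM (0.19 ± 0.68). Wound keratinocyte genes did not separate the groups either. Krt6a, a keratin of wound edges, was at 231, 223 and 37.9 CPM against 419, 253 and 111 CPM (0.86 ± 0.82, adjusted p 0.55), so that only ticks 3x 3 lay within the first exposure range. Krt17 was at 1050, 1190 and 346 CPM against 634, 535 and 409 CPM, and Sprr1a at 748, 880 and 38.4 CPM against 158, 172 and 30.5 CPM.

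The position of the other libraries was described for the genes without overlap, since none was called. Among the 1493 higher genes, 107 (7.17%) had saliva immune nearer first exposure and all naive and ticks 2x libraries nearer ticks 3x, the split of the title series, and among the 2064 lower genes 334 (16.2%) did. A split by repeat contact, with saliva immune and all ticks 2x libraries nearer ticks 3x and naive skin nearer first exposure, was found for 43 higher genes (2.88%) and 38 lower genes (1.84%). For 37 higher genes (2.48%) and 9 lower genes (0.436%) all 6 other libraries lay nearer first exposure, and for 89 higher (5.96%) and 132 lower genes (6.4%) all 6 lay nearer ticks 3x. Chosen from the repeat contact class after the values were seen, Fkbp5, a target of glucocorticoids, was at 31.6, 32.7 and 74.1 CPM against 80, 169 and 149 CPM (1.55, adjusted p 0.133), with naive skin at 31.8 and 36.8 CPM. Car4, a membrane carbonic anhydrase, was at 1.57, 1.28 and 3.32 CPM against 33, 48.8 and 7.57 CPM (3.05, adjusted p 0.192). It was at 189 CPM in saliva immune and at 3.19 and 3.59 CPM in naive skin. Mrgprg, an orphan receptor of the Mas-related family, was at 1.08, 0.112 and 5.48 CPM against 14.7, 5.98 and 27 CPM (2.56, adjusted p 0.148), with ticks 2x at 30.4, 22.5 and 24.2 CPM and saliva immune at 129 CPM.

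Ticks 3x was also set against ticks 2x, within 1 title series. No gene was called between ticks 3x and ticks 2x (0% of 16657, limma), 858 genes (5.15%) had an unadjusted p below 0.05, and the smallest adjusted p was 0.621. Over the 223 immune genes the median log2 difference was -0.02, with 106 above 0. Monocyte chemokines had a median of -0.71 and neutrophil-recruiting cytokines one of -1.62. Il1b differed by -2.25, with an adjusted p of 0.89. Both comparisons use the same ticks 3x libraries, so they are not independent.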

How the data were processed

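Members and gene lists were chosen with earlier results of these data known. The deposited CPM table, per the labels' protocols from total RNA of skin and, per the submitters' processing notes, made with STAR and Partek 8.0.19 on GRCm38.p6, holds 25070 genes with 0.0001 added by the authors to each value; no source used here names the annotation or counting program. Depth was estimated from the step between low CPM values (whole within 0.02 reads for 73.7% to 79.4% of values); as whole reads were not recovered for nearly all values, no count test was run. Floors cover counting error only.

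Genes that reached 1 CPM in 2 or more of these 6 libraries were fitted on log2(CPM + 1) with limma 3.58.1 (R 4.3.3), trend in the prior variance, 4 groups, 11 libraries (saliva immune left out) and 7 residual degrees of freedom, with Benjamini-Hochberg adjustment over 16657 genes. On this scale fold changes of low genes are understated. Errors are limma standard errors. Replicates are numbered in accession order. The script was tested on simulated data.

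Named genes are, in each direction, the 6 of smallest unadjusted p among genes without overlap and with at least 5 CPM on the higher side, since none was called; the 2 most abundant members of a list described; and Mcpt8, Il4, Il13, Il10, Cd4, Ccl8, Krt6a, Fos, Rps12 and Rnase2a. Predicted genes were left out, and 1 gene under the rule is not reported here. Further members of lists were chosen after their values were seen. Of 869 list entries, 840 matched by symbol, 3 by an older symbol and 26 not at all. The planned description of the other libraries for called genes was made for genes without overlap. Coordinates are RefSeq's for GRCm38.p6, and promoters RefSeq's of the same build. Python 3.11.15, pandas 2.3.3 and matplotlib 3.10.9 drew the figures.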

Additional observations from a re-analysis of the deposited data

How the results depend on the processing

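No paired analysis was possible because the labels carry no replicate numbers. Both counts of calls between ticks 3x and first exposure stayed at 0 with pseudocounts of 0.5 and 0.1, no filter or one at 5 CPM, a filter over 11 libraries, other scalings, robust moderation, only the 6 libraries, a minimum log2 fold change of 1 and covariates for hair or for fat and muscle. Array weights gave 4676 higher and 5954 lower, and weights estimated gene by gene, added after seeing the data because the first estimate stopped before convergence, 3808 and 4355. Leaving out both hair-poor libraries gave 1 higher (Rnase2a). Leaving out 1 library in turn gave 0 to 769 higher and 0 to 713 lower, both highest without first exposure 3, and for ticks 3x against ticks 2x 0 to 1 higher and 0 lower. The cause was not tested. None of 20 genes followed through the alternatives changed direction. Lists with a median above 0 numbered 36 of 48 and between 34 and 39 under the alternatives. Genes under the floor of 3 reads, such as Mcpt8 at first exposure, are limited by depth.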
